A study of Mus musculus with 12 samples.

Results

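Genes of the Bcl2 family, the caspases and the death signalling complexes were followed in donor CD4+ T cells early in a graft-versus-host response, in mice given a ligand of AhR, the aryl hydrocarbon receptor, which turns on genes when a small molecule binds it. The set is a list of 30 genes chosen by name. Of these, 27 had a probe set that carries their symbol alone, out of 19938 genes measured in this way, and Bax, Ripk1 and Trp53 were not analysed here. Of several probe sets for a gene, the brightest on average across the 12 arrays was taken.

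Splenocytes of C57Bl/6 mice, stained with the division dye CFSE, had been injected into B6D2F1 host mice on day 0, and both strains were 10 to 12 weeks old. Hosts of the TCDD group received 15 µg/kg TCDD, a persistent chlorinated dioxin that binds AhR, by intraperitoneal injection on day 0. Hosts of the Cl-BBQ group received 2 mg/kg Cl-BBQ, another AhR ligand, on days 0 and 1, and hosts of the vehicle group received vehicle on days 0 and 1. All 3 groups had the cell transfer, and the groups differed in dosing schedule as well as in compound. On day 2 (48 hr), CD4+ cells from spleen and lymph node that had divided at least 2 times were enriched on pan-CD4 beads and sorted, and cells with fewer divisions were not measured. RNA from 4 biological replicates per group was put on 12 arrays. The ligand was given to the whole host, so the arrays do not separate an action on the donor cells from one on host cells, and the labels do not say whether donor spleens were pooled.

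Apoptosis of T cells runs along 2 routes. In the mitochondrial route the proteins Bcl2, Bcl-xL and Mcl1 hold Bax and Bak in check, BH3-only proteins such as Bim and Bid release them, and cytochrome c then joins Apaf1 to activate caspase-9. In the death receptor route Fadd recruits caspase-8, which c-FLIP restrains, and where caspase-8 is blocked the kinases Ripk1 and Ripk3 can start necroptosis, a lytic death carried out by the pseudokinase Mlkl. Activated T cells pass through both controls when a response expands and contracts.

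Values are log2 intensities of robust multi-array average (RMA) processing, in which a step of 1 is a doubling of signal. Levels of different genes cannot be compared on this scale, because each probe set has its own brightness, so every comparison below is within a gene. Groups are given as mean ± SD of 4 arrays. Differences come from limma, fitted over all 19938 genes and 12 arrays, with a 95% interval. Genes counted as called had a p below 0.05 after Benjamini-Hochberg adjustment across the whole table. The array medians ran from 7.11 to 7.24, a range wider than many of the differences given below. Centring the medians changed the called genes from 247 to 160 with TCDD and from 39 to 8 with Cl-BBQ. In pattern the arrays were alike (correlations of 0.988 to 0.995 over probe sets). The AhR target Cyp1b1 stood at 9.85 ± 0.12 with TCDD, 7.49 ± 1.05 with Cl-BBQ and 6.36 ± 0.14 with vehicle, and Cl-BBQ replicate 3, at 5.93, lay below every vehicle array. By limma, Cyp1b1 was called with TCDD against vehicle (adjusted p = 3.6e-05) but not with Cl-BBQ (adjusted p = 0.298). The mean of 11 CD4 T cell markers was 12.24 to 12.38 with TCDD, 12.19 to 12.43 with Cl-BBQ and 12.25 to 12.34 with vehicle, and none of the 11 was called.

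AhR with its partner Arnt binds DNA at a short core, GCGTG, which reads CACGC on the other strand. The 250 bases before the annotated start are shown for Mlkl, a gene outside the list that was called with both ligands, for Bcl2 and Bid, which had the smallest unadjusted p with TCDD, and for Bbc3, whose window held more copies of the core than theirs; the choice of Mlkl and Bbc3 followed a look at their values. The sequences are from RefSeq (GRCm38.p6), 5′ to 3′ on the gene's strand, with the core in capitals on either strand. They lie at chr8:111338206-111338455, minus strand for Mlkl, chr1:106714291-106714540, minus strand for Bcl2, chr6:120916825-120917074, minus strand for Bid and chr7:16309333-16309582, plus strand for the first of 3 listed starts of Bbc3.
Mlkl: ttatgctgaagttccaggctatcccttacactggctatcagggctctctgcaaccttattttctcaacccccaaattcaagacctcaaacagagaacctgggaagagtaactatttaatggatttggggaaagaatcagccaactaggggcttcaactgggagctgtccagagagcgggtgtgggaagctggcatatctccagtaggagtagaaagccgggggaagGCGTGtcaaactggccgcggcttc
Bcl2: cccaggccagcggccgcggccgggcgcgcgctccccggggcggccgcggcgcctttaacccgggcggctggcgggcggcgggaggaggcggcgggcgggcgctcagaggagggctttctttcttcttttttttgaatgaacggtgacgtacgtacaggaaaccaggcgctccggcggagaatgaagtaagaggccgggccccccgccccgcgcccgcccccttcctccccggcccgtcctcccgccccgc
Bid: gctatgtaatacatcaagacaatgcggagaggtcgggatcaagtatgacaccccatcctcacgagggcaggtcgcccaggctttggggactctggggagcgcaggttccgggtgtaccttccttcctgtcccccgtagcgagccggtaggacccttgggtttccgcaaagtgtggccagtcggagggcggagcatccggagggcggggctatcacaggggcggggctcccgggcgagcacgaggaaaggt
Bbc3: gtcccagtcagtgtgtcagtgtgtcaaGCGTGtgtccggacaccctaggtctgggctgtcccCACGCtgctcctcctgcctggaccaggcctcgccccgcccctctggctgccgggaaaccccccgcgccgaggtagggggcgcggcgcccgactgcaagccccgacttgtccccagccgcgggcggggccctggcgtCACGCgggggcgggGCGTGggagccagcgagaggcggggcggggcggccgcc

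Mlkl held 1 core, 24 bases before the start, Bcl2 and Bid held 0 in this window, and Bbc3 held 4, none overlapping another. Of the 30 listed genes 28 had promoters in the table, with 40 starts. The core was in 45.0% of these 40 windows and in 28.2% of all 32851 windows of the same length. Windows of 1 gene are not independent. By gene, 13 of 28 held it in at least 1 window, or 46.4%, against 30.9% of all 27025 genes. A gene with more starts has more windows in which to hold it. The 27025 are all genes with promoters in that table, not the 19938 measured. Base composition was not taken into account, so these shares are not read as an excess. The 28 include Bax, Ripk1 and Trp53, whose expression was not analysed. The match describes letters in a short window and says nothing of binding there or elsewhere.

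TCDD was set against vehicle to ask what the dioxin changed in the divided cells. No apoptosis gene of the list was called: 0 of 27 by limma, against 1.24% of all genes (247 of 19938), and 3 of 27 had an unadjusted p under 0.05, against 8.69% of all genes. The lowest values relative to vehicle were those of Bcl2, which blocks the mitochondrial route, and of Bid, the BH3-only protein that caspase-8 cleaves, and the highest was that of Hrk, another BH3-only gene. All 27 intervals lay between −0.52 and 0.32, that is within a decrease of 1.44-fold and an increase of 1.25-fold. The median change of the 27 genes was 0.02 and that of all genes 0.00, with 18 of the 27 above 0 (66.7%, against 52.1% of all genes).

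Bcl2 (probe set 10357043) measured 9.61, 9.76, 9.67 and 9.86 in the 4 TCDD arrays, against 10.17, 10.23, 9.98 and 9.89 in the vehicle arrays. Every TCDD array lay below every vehicle array, by a narrow margin between TCDD replicate 4 and vehicle replicate 4. The log2 difference was −0.34 (interval −0.52 to −0.17; unadjusted p = 0.000882), a level 1.27-fold lower with TCDD, and limma gave an adjusted p of 0.0659. The gene lay close to the threshold: it passed after quantile normalization (adjusted p = 0.0357), with array weights (adjusted p = 0.0235), with dim genes left out (adjusted p = 0.0438) and without vehicle replicate 4 (log2 difference −0.40; adjusted p = 0.0312). Over all 18 alternatives the adjusted p ran from 0.0235 to 0.279 and the difference from −0.40 to −0.27.

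Bid (probe set 10547531) stood at 8.20, 8.40, 8.26 and 8.32 in the TCDD arrays and at 8.62, 8.47, 8.47 and 8.69 in the vehicle arrays. The groups again did not overlap. Its log2 difference was −0.27 (interval −0.43 to −0.11), 1.21-fold lower with TCDD, and it was not called (adjusted p = 0.147, with 0.062 to 0.415 over the alternatives). Bcl2 and Bid have opposite known roles, the one as a brake and the other as a trigger of the same mitochondrial step. Hrk, which binds Bcl2 and Bcl-xL, measured 8.48, 8.55, 8.35 and 8.35 with TCDD against 8.31, 8.28, 8.34 and 8.17 with vehicle, where the lowest TCDD array was just above the highest vehicle array. The log2 difference of Hrk was 0.16 (adjusted p = 0.574). Groups failed to overlap in these 3 of 27 genes, against 5.80% of all genes.

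In sorted bulk cells, fewer cells of a type and less RNA per cell cannot be told apart, and some markers of other cells moved beside Bcl2 and Bid. Of 12 B and plasma cell markers, Cd22 (log2 difference −0.95) and Bank1 (−0.48) fell with TCDD and the other 10 were not called. Of all genes, 1.24% were called with TCDD. The 12 did not move together: 6 were above vehicle and 6 below, with a median difference of −0.01. Several of the 12 were dim with vehicle, such as Ms4a1 at 5.07 and Ebf1 at 5.49, where a fall is hard to see. The mean of the 12 was 6.40 to 6.53 with TCDD and 6.52 to 6.65 with vehicle. Cd74 fell with TCDD (log2 difference −0.43) as 1 of 16 myeloid and dendritic markers. The mean of the 16 was 6.90 to 6.96 with TCDD and 6.92 to 7.02 with vehicle. Of these 16, 7 were above vehicle and 9 below. No CD8, NK, erythroid, neutrophil or platelet marker was called (2, 7, 3 and 12 measured, the last count for neutrophils and platelets together). The mean of the 2 CD8 markers was 8.37 to 8.70 with TCDD, 8.32 to 8.54 with Cl-BBQ and 8.36 to 9.18 with vehicle. Among vehicle arrays Cd8a had an SD of 0.74, against 0.26 with TCDD and 0.13 with Cl-BBQ. With Cl-BBQ no B, plasma, myeloid or dendritic marker was called. There Cd22, Bank1 and Cd74 differed from vehicle by −0.62, −0.41 and −0.29 (limma adjusted p = 0.168, 0.202 and 0.364). With Cl-BBQ 6 of the 12 were above vehicle and 6 below, and of the 16, 8 were above and 8 below. The part of these other cells in the Bcl2 and Bid values was not tested with either ligand.

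**Figure D1:**
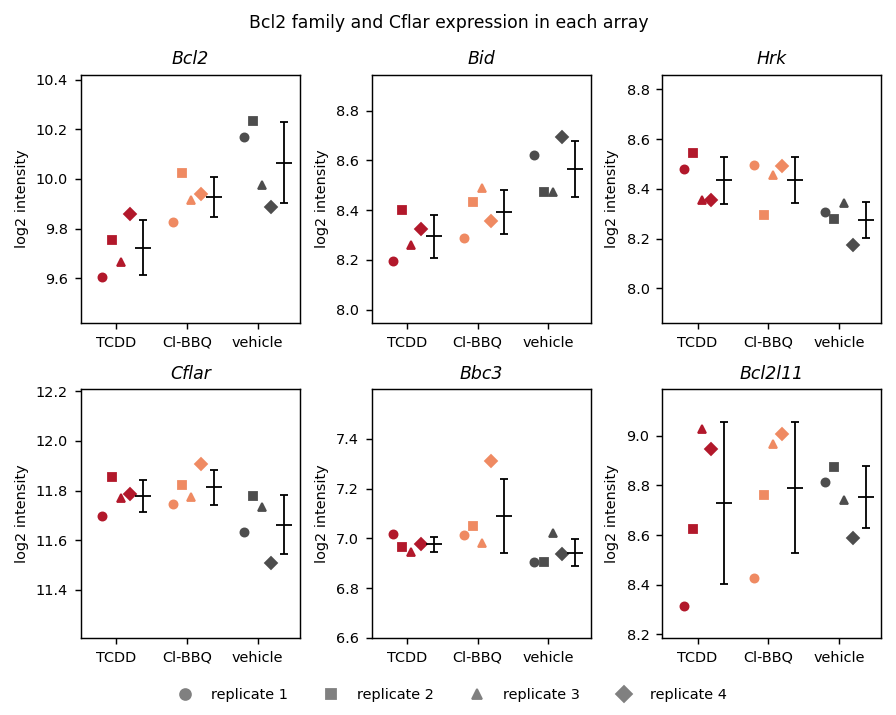
Log2 intensity of 6 genes in each array (symbols, by replicate number), with the mean and SD of 4 arrays as a bar to the right; groups run TCDD, Cl-BBQ, vehicle, and the y axes differ in position and do not start at 0. Bcl2 and Bid in the TCDD arrays lie below all vehicle arrays, while Bcl2l11 spreads from 8.32 to 9.03 among the TCDD arrays.

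The other brakes of the mitochondrial route stayed closer to vehicle. Mcl1, a short-lived protein that T cells need to survive, measured 12.11, 12.13, 12.12 and 12.20 with TCDD and 12.02, 12.16, 12.01 and 12.05 with vehicle, a difference of 0.08 (interval −0.02 to 0.18; adjusted p = 0.686). Bcl2l1, which encodes Bcl-xL, measured 8.34, 8.39, 8.35 and 8.52 with TCDD and 8.53, 8.42, 8.28 and 8.18 with vehicle, a difference of 0.05 (interval −0.14 to 0.24). The groups overlapped in both genes. The effectors Bak1 (0.02) and Bok (0.09) differed little, with intervals from −0.11 to 0.24 between them.

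Bcl2l11, which encodes Bim, the BH3-only protein best known for the death of T cells after a response, had a small difference in mean and a wide spread. It measured 8.32, 8.62, 9.03 and 8.95 in the TCDD arrays and 8.81, 8.87, 8.74 and 8.59 in the vehicle arrays. Replicate 1 of TCDD lay below all vehicle arrays, replicates 3 and 4 above them and replicate 2 among them, and the log2 difference was −0.02 (interval −0.34 to 0.29; adjusted p = 0.988). Without the arrays numbered 1 in all groups the difference was 0.13 (adjusted p = 0.871). Its pooled SD within groups, 0.252, was the highest of the 27 genes, whose median was 0.094 against 0.110 for all genes.

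Of the further BH3-only genes, Pmaip1 (Noxa) and Bbc3 (Puma), both known p53 targets, differed from vehicle by 0.10 and 0.03 with TCDD. Bmf, Bad and Bik differed by 0.04, 0.01 and 0.01. All 5 intervals lay between −0.17 and 0.24. Apaf1, the scaffold of the apoptosome, differed by 0.10, the caspase-9 gene Casp9 by 0.04 and Cycs, which encodes cytochrome c, by 0.06. Diablo, which encodes an antagonist of the inhibitor of apoptosis proteins, differed by −0.09 with an interval of −0.33 to 0.14.

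Cflar, which encodes c-FLIP, measured 11.70, 11.85, 11.77 and 11.78 with TCDD, against 11.63, 11.78, 11.73 and 11.51 with vehicle. The groups overlapped, and the difference was 0.11 (interval −0.01 to 0.24; adjusted p = 0.629). Casp8 differed by 0.03, and its interval of −0.06 to 0.11 was the narrowest of the list in width. Casp2 and Casp6 differed by −0.05 and −0.01, and the adaptor gene Fadd and the kinase gene Ripk3 each by 0.01. The inhibitor of apoptosis genes Xiap, Birc2 and Birc3 differed by −0.01, −0.02 and 0.03, and Mdm2, the ubiquitin ligase of p53 and itself a p53 target, by −0.02 (interval −0.14 to 0.10). With several probe sets, the 3 of Cflar gave 0.11, 0.01 and 0.09, the 2 of Birc2 gave −0.02 and −0.11, and the 3 of Cycs gave 0.06, 0.05 and −0.15, the dimmest of Cycs thus with the other sign; none was called.

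**Figure D2:**
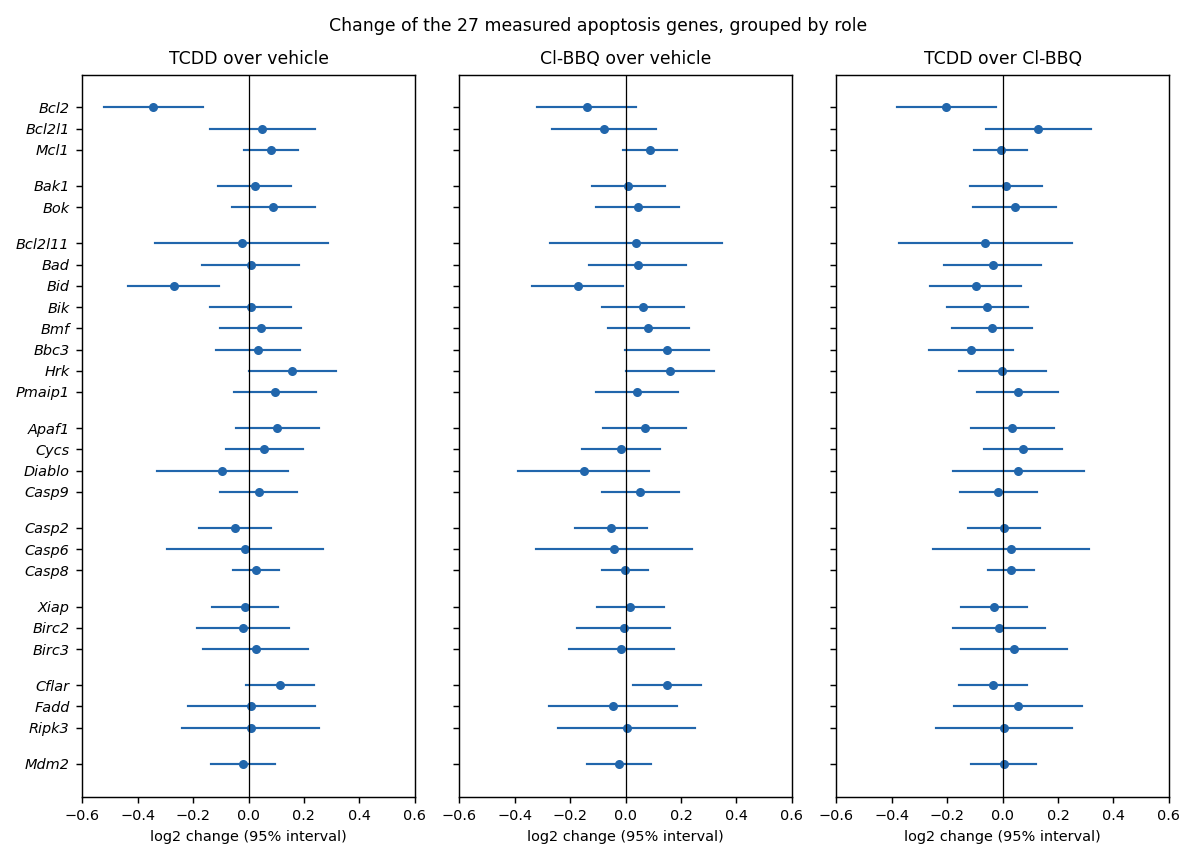
Log2 difference (points) with its 95% interval (lines) for the 27 measured genes in 3 comparisons, grouped by role from the brakes of the mitochondrial route at the top to Mdm2 at the bottom. Only the intervals of Bcl2, Bid and Hrk (TCDD over vehicle), of Bid, Hrk and Cflar (Cl-BBQ over vehicle) and of Bcl2 (TCDD over Cl-BBQ) exclude 0, without correction for the number of genes, and no gene was called.

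Cl-BBQ was set against the same vehicle arrays, which both comparisons therefore share. Again 0 of 27 genes were called by limma, against 0.196% of all genes (39 of 19938), and 3 of 27 had an unadjusted p under 0.05, against 7.91% of all genes. These were Cflar, Bid and Hrk, and in none of the 27 genes were the Cl-BBQ and vehicle arrays apart, against 3.85% of all genes. All intervals lay between −0.39 and 0.35, a span from 1.31-fold lower to 1.27-fold higher. The median change was 0.01, the same as over all genes.

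Cflar measured 11.75, 11.82, 11.78 and 11.91 with Cl-BBQ and 11.63, 11.78, 11.73 and 11.51 with vehicle. Vehicle replicate 4 was the lowest of these arrays, and the log2 difference was 0.15 (interval 0.03 to 0.27; adjusted p = 0.525). The other probe sets of Cflar gave 0.00 and 0.05, with intervals from −0.11 to 0.20 between them. Bid measured 8.29, 8.43, 8.49 and 8.36 with Cl-BBQ, against 8.62, 8.47, 8.47 and 8.69 with vehicle. Cl-BBQ replicate 3 reached into the vehicle range, and the difference was −0.17 (interval −0.34 to −0.01; adjusted p = 0.605). Hrk measured 8.49, 8.30, 8.46 and 8.49 with Cl-BBQ and 8.31, 8.28, 8.34 and 8.17 with vehicle, a difference of 0.16 (adjusted p = 0.628), with Cl-BBQ replicate 2 inside the vehicle range.

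Bbc3 measured 7.01, 7.05, 6.98 and 7.31 with Cl-BBQ, against 6.91, 6.90, 7.02 and 6.94 with vehicle. Cl-BBQ replicate 4 was the highest array and the groups overlapped, with a difference of 0.15 (adjusted p = 0.642). Mcl1 measured 12.08, 12.19, 12.08 and 12.23 with Cl-BBQ and 12.02, 12.16, 12.01 and 12.05 with vehicle, overlapping, with a difference of 0.09 (interval −0.01 to 0.18; adjusted p = 0.661). Bcl2 was at 9.83, 10.02, 9.92 and 9.94 with Cl-BBQ, inside the vehicle range of 9.89 to 10.23 except for replicate 1. Its difference was −0.14 (interval −0.32 to 0.04; adjusted p = 0.719). Bcl2l1 measured 8.08, 8.31, 8.38 and 8.33 with Cl-BBQ and 8.53, 8.42, 8.28 and 8.18 with vehicle, and Bcl2l11 measured 8.43, 8.76, 8.96 and 9.01 with Cl-BBQ and 8.81, 8.87, 8.74 and 8.59 with vehicle. Both overlapped with vehicle, with differences of −0.08 and 0.04. The other 19 genes ran from −0.15 for Diablo to 0.08 for Bmf.

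The doses and schedules of the ligands differed, so the comparison of TCDD with Cl-BBQ sets the treatments side by side as given. Of the 27 genes 0 were called by limma, against 0.015% of all genes (3 of 19938, and 5 with the replicate number as a block), and 1 had an unadjusted p under 0.05, against 2.99% of all genes. In none of the 27 were the TCDD and Cl-BBQ arrays apart, against 2.04% of all genes. The gene with the small p was Bcl2, at 9.72 ± 0.11 with TCDD and 9.93 ± 0.08 with Cl-BBQ, a difference of −0.20 (interval −0.38 to −0.03; adjusted p = 1.00). Bcl2l1 differed by 0.13 (interval −0.06 to 0.32), Bbc3 by −0.11, Bid by −0.10 and Cycs by 0.07. Bbc3 measured 7.02, 6.96, 6.94 and 6.98 with TCDD. Cycs measured 12.83, 12.68, 12.77 and 12.68 with TCDD, 12.81, 12.61, 12.72 and 12.53 with Cl-BBQ and 12.71, 12.48, 12.77 and 12.77 with vehicle, all overlapping. Paired by replicate number, 4 of 27 genes differed one way in all 4 pairs, or 14.8% against 14.1% of all genes. Bcl2 and Bid were lower with TCDD in each pair and Cycs and Birc3 higher, and none was called with the number as a block. Intervals of all 27 genes lay between −0.38 and 0.32, a span from 1.30-fold lower to 1.25-fold higher.

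The arrays numbered 1 of both ligand groups, but not of vehicle, were low within their group in part of the list. TCDD replicate 1 was the lowest TCDD array in 19 of 27 genes, against 32.3% of all genes, and Cl-BBQ replicate 1 was the lowest Cl-BBQ array in 16 of 27, against 35.2% of all genes. In 13 genes both held, and the share of all genes in which both held was not counted. Among the 13 were Bcl2l11, Casp6, Diablo, Fadd, Birc3 and Ripk3, the 6 genes with the highest spread within groups. That spread comes from the same values, so this match is not a separate result. Casp6, an executioner caspase, measured 8.04, 8.35, 8.21 and 8.56 with TCDD, 7.82, 8.51, 8.34 and 8.36 with Cl-BBQ and 8.36, 8.29, 8.15 and 8.39 with vehicle. Vehicle replicate 1 was the lowest vehicle array in 4 of the 27, against 18.8% of all genes. Over all genes the deviations of TCDD replicate 1 and Cl-BBQ replicate 1 from their group means correlated at 0.606, a description across genes that are not independent. The labels do not say what the numbers share.

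**Figure D3:**
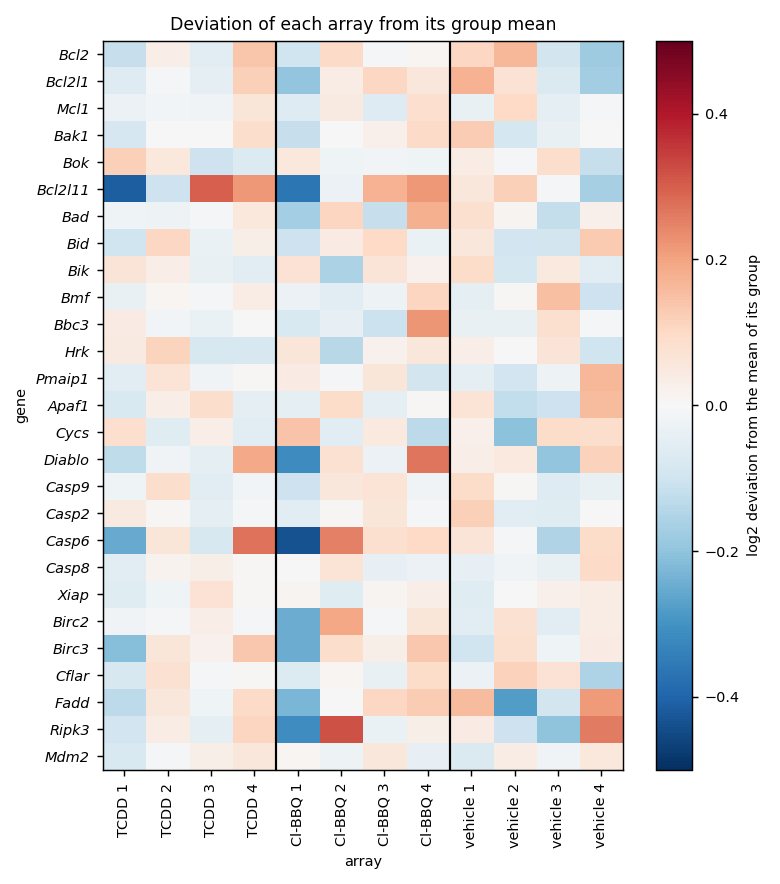
Deviation of each array (columns) from the mean of its group for the 27 genes (rows), in log2 units by colour from −0.5 (blue) to 0.5 (red); vertical lines part the TCDD, Cl-BBQ and vehicle arrays. Bcl2l11 and Casp6 are blue in replicate 1 of both ligand groups, where Bcl2l11 measured 8.32 with TCDD and 8.43 with Cl-BBQ.

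Other genes of the pathway came from 4 further lists, of 12, 13, 23 and 24 measured genes. With TCDD, 1.24% of all genes were called, and these lists held 2 called genes. One was Mlkl, the executor of necroptosis. Mlkl (probe set 10581813) measured 9.30, 9.28, 9.55 and 9.44 with TCDD, 9.19, 9.05, 8.92 and 8.99 with Cl-BBQ and 8.57, 8.54, 8.08 and 8.51 with vehicle. The 3 groups did not overlap at any pair, with TCDD highest and vehicle lowest. Mlkl was 1.96-fold higher with TCDD than with vehicle (log2 difference 0.97, interval 0.74 to 1.19; adjusted p = 0.00014) and 1.53-fold higher with Cl-BBQ (0.61, interval 0.39 to 0.84; adjusted p = 0.0335).

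The TCDD call of Mlkl held in all 18 alternatives (highest adjusted p = 0.00136). The Cl-BBQ call was lost in 7 of 18, with an adjusted p of up to 0.115: after median centring, in a fit of those 2 groups alone, on leaving out replicate 2 or 4 of Cl-BBQ or replicate 1 or 4 of vehicle, and without the arrays numbered 1 (log2 difference 0.50 to 0.66 over all 18). Between TCDD and Cl-BBQ, Mlkl differed by 0.36 (interval 0.13 to 0.58; adjusted p = 1.00). Ripk3, the kinase that activates Mlkl, measured 9.99, 10.12, 10.04 and 10.19 with TCDD, 9.77, 10.40, 10.05 and 10.11 with Cl-BBQ and 10.12, 9.98, 9.88 and 10.34 with vehicle, overlapping throughout.

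In the list of further inhibitor of apoptosis, death receptor and necroptosis genes, Mlkl rose with TCDD, 0 fell and 22 of 23 were not called. The median change was −0.05. With Cl-BBQ, Mlkl rose and 22 were not called, with a median of −0.02. Of all genes, 1.24% were called with TCDD and 0.196% with Cl-BBQ. Birc5, which encodes survivin, was at 12.48 ± 0.03 with TCDD and 12.39 ± 0.03 with vehicle (adjusted p = 0.364). Tnip1, an NF-κB regulator, was at 8.92 ± 0.15 with TCDD and 9.19 ± 0.11 with vehicle (adjusted p = 0.419), and at 9.02 ± 0.22 with Cl-BBQ (adjusted p = 0.741).

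The other was Pmm1, a phosphomannomutase gene listed among p53 targets. It measured 9.21, 9.47, 9.23 and 9.28 with TCDD, 9.03, 9.19, 9.06 and 9.15 with Cl-BBQ and 8.99, 8.82, 8.90 and 9.01 with vehicle. Against vehicle, Pmm1 was higher with TCDD by 0.37 in log2 units or 1.29-fold (limma interval 0.20 to 0.53, adjusted p = 0.023). The Pmm1 call was lost in 6 of 18 alternatives, namely after median centring (adjusted p = 0.096) and without TCDD replicate 2, 3 or 4 or vehicle replicate 2 or 3 (highest adjusted p = 0.109). With TCDD 23 of 24 p53 targets were not called, and 3 had an unadjusted p under 0.05, or 12.5% against 8.69% of all genes. With Cl-BBQ 0 of 24 were called by limma, against 0.196% of all genes. With Cl-BBQ 3 had an unadjusted p under 0.05, or 12.5% against 7.91% of all genes. Ei24, a p53-induced gene, measured 11.57, 11.61, 11.70 and 11.64 with Cl-BBQ and 11.78, 11.79, 11.80 and 11.84 with vehicle, without overlap. Its log2 difference was −0.17 (limma adjusted p = 0.129), and it was at 11.75 ± 0.04 with TCDD. Cl-BBQ and vehicle arrays did not overlap in 2 of the 24 p53 targets, or 8.33%, against 3.85% of all genes. Rrm2b, a ribonucleotide reductase subunit gene, differed by 0.21 with TCDD (adjusted p = 0.486) and was called after quantile normalization (log2 difference 0.23; adjusted p = 0.0434).

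Of 12 further Bcl2 family genes, 0 were called with TCDD or with Cl-BBQ by limma, with 1 and 3 at an unadjusted p under 0.05, or 8.33% and 25.0% of them against 8.69% and 7.91% of all genes. Bcl2l15 was at 6.06 ± 0.03 with TCDD, 6.11 ± 0.17 with Cl-BBQ and 5.82 ± 0.15 with vehicle, and differed from vehicle by 0.24 (adjusted p = 0.313) and 0.30 (adjusted p = 0.256). Bcl2a1c, one of several near-identical copies of the survival gene A1 whose signals a probe set may mix, was at 9.72 ± 0.12 with Cl-BBQ and 9.96 ± 0.11 with vehicle (adjusted p = 0.374). Bclaf1 differed by −0.09 with TCDD and −0.10 with Cl-BBQ. Of 13 further caspase and death effector genes 0 were called with either ligand, and 0 had an unadjusted p under 0.05; the medians were −0.02 and −0.07. Here the nuclease gene Endog differed by −0.13 with TCDD, the protease gene Htra2 by −0.10 with Cl-BBQ, and Parp1, a known caspase substrate, by −0.13 with Cl-BBQ.

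**Figure D4:**
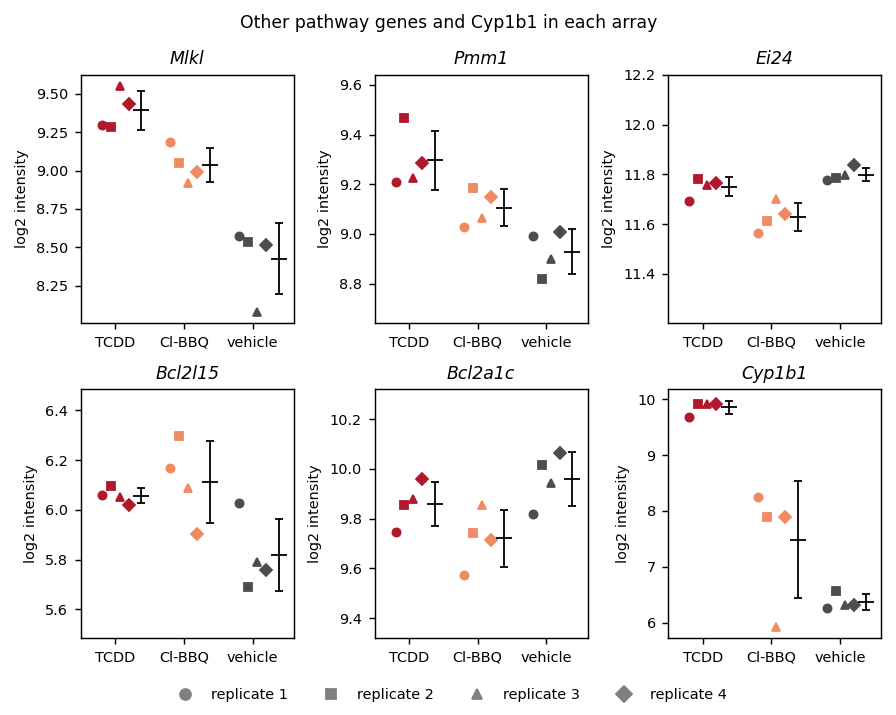
Log2 intensity in each array (symbols, by replicate number), with the mean and SD of 4 arrays as a bar to the right, for 5 pathway genes outside the list and for the AhR target Cyp1b1; groups run TCDD, Cl-BBQ, vehicle, and the y axes differ in position and span. Mlkl lies at 9.28 to 9.55 with TCDD, 8.92 to 9.19 with Cl-BBQ and 8.08 to 8.57 with vehicle.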

How the data were processed

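The deposited values are log2 intensities made by the authors with RMA, per the submitters' processing notes; its version is not given in the sources used, and the log2 scale was read from the values (2.49 to 14.2). Of 35556 probe sets, 21789 carried 1 gene symbol, 1621 several and 12146 were not listed; names came from the platform's probe table, and 21698 Entrez identifiers matched RefSeq (GRCm38.p6) with 0 symbols changed. The brightest probe set per gene was kept, leaving 19938 genes, with no filter on dim genes. limma 3.58.1 (R 4.3.3) fitted 3 group means with an intensity trend and 9 residual degrees of freedom, two-sided. The number of arrays limits the precision.

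Members and lists were chosen with earlier results of these data known. Values per array were given for called members, for the 5 with the smallest unadjusted p in each comparison and for Bcl2, Bcl2l1, Mcl1 and Bcl2l11, and for called genes of the further lists and Ei24; the 2 genes of each further list with the smallest unadjusted p against vehicle were named, the others by group means or differences; Casp6 and Ripk3 were added after their values were seen. Deviations of same-numbered TCDD and Cl-BBQ arrays correlated over 0.1 in 4 of 4 pairs (r = 0.113 to 0.606 over all genes). Unlike-numbered pairs ran from −0.588 to 0.419, and 5 of 8 arrays correlated best with their own number. A fit blocked on the number stands beside that comparison where it changed a count. Figures were drawn with matplotlib 3.10.9 (Python 3.11.15).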

Additional observations from a re-analysis of the deposited data

Results flagged for a closer look

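In groups of 4 arrays, 7 of 120 combinations of a named gene and a group had 1 array far from the other 3 by Dixon's test, which by chance marks about 1 in 20. Among the listed apoptosis genes these were 2 of 81: Bok in Cl-BBQ replicate 1, at 8.01 with the others at 7.94 to 7.95, and Casp8 in vehicle replicate 4, at 12.46 with the others at 12.32 to 12.34. Among the other genes, Mlkl in vehicle replicate 3 was at 8.08 with the others at 8.51 to 8.57, and Rrm2b in the same array at 8.85 with the others at 9.01 to 9.04. Birc5 in Cl-BBQ replicate 4 was at 12.32, where the other 3 were all at 12.45. Cyp1b1 was at 9.67 in TCDD replicate 1 with the others at 9.91 to 9.92, and at 5.93 in Cl-BBQ replicate 3 with the others at 7.89 to 8.24.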

How the results depend on the processing

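The count of called genes on the list with TCDD was 1 instead of 0 after quantile normalization, with array weights, with dim genes left out (25 of 27 kept) and with the replicate block, and 0 to 1 with replicates left out; the gene was Bcl2 each time. With Cl-BBQ, and between the ligands, it was 0 under all 18 alternatives. Of 1452 values of the listed genes under alternatives, 1312 kept sign and call, 135 changed sign without a call (none with a main difference over 0.08) and 5 were called newly. Over all genes, TCDD called 247, with 160 after median centring, 391 with array weights, 397 with the replicate block and 150 to 272 with replicates left out. Cl-BBQ called 39, with 8 after median centring, 96 after quantile normalization, 18 without an intensity trend, 11 in a fit of 2 groups, 111 with the replicate block and 3 to 61 with replicates left out. TCDD over Cl-BBQ called 3, with 0 after quantile normalization, without a trend and in a fit of 2 groups, 9 with array weights, 5 with the replicate block and 0 to 7 with replicates left out. Cyp1b1 with Cl-BBQ was called without Cl-BBQ replicate 3 (log2 difference 1.65; adjusted p = 3.5e-06). The causes were not tested. Numbers were not shown to pair ligand with vehicle arrays: 2 of 4 pairs with TCDD and 0 of 4 with Cl-BBQ correlated over 0.1, and 4 and 0 of 8 arrays correlated best with their own number; with the replicate block Bcl2 had an adjusted p of 0.0348 with TCDD. Leaving out the arrays numbered 1 together was chosen after seeing the data.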
